A study of Mus musculus with 4 samples.

Results

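The genes described here are the 4 teneurin genes Odz1, Odz2, Odz3 and Odz4 (now Tenm1 to Tenm4) and the 3 latrophilin genes Lphn1, Lphn2 and Lphn3 (now Adgrl1 to Adgrl3), 7 of 26031 gene models. They were chosen by their numbers of listed bins, as a receptor-ligand family that includes genes with many. The data described are the 5 kb genomic bins that the authors listed as differing in 5-hydroxymethylcytosine (5hmC) between LSH knockout and wild-type cells and that overlap a gene locus or the 5 kb upstream of it. Of 882 such bins, 18 of the 8557 on the embryonic stem (ES) cell list and 26 of the 9002 on the mouse embryonic fibroblast (MEF) list were found, 42 distinct bins in all. The lists chose these bins, so their numbers are a description and no test is given.

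5hmC is the oxidised form of 5-methylcytosine that TET enzymes make, mostly at CpG dinucleotides, and LSH, the product of Hells, is a chromatin remodeler of the SNF2 family. The study held 4 libraries: wild-type ES cells, LSH knockout ES cells, wild-type MEFs and LSH knockout MEFs, with 1 library each. ES cells were grown with serum and LIF and MEFs with serum. The sources used here do not name the strain, the knockout allele, the clone or the embryo stage. The lists give positions only, with no level, fold change, p-value or direction, and the depth is unknown. A listed bin is called altered here, without saying whether 5hmC rose or fell. Neither the identity of the cells nor the loss of LSH can be checked from positions. Hells itself (chromosome 19, 39005405 to 39045541) had 0 of its 10 bins on either list, which says nothing on the knockout.

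Teneurins are very large type II membrane proteins whose carboxyl-terminal part lies outside the cell. Latrophilins are adhesion G protein-coupled receptors that bind teneurins, and also FLRT proteins, across cell contacts. The pair is known chiefly for axon guidance and synapse formation in the nervous system, and both families have roles in other embryonic tissues. Their genes are long, with wide introns toward the 5′ end and most exons crowded toward the 3′ end in the teneurins.

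Within the annotated loci, Odz4 carried the most altered bins in both cell types and the only bins on both lists; with Odz3 lengthened to its RefSeq length, Odz3 has 10 MEF bins against 9 and 1 bin on both lists. Sequence from 5 of the listed bins shows what such bins hold. Each line gives the 300 bases with the most CpG in its bin, outside untranslated exon sequence, in the direction of transcription from the NCBIM37 (mm9) genome. Capitals mark CpG, the dinucleotide at which most 5hmC lies. The lines are the 2 Odz4 bins on both lists, the Odz4 intron bin with the most CpG on the ES list alone, the Odz4 bin with the fewest CpG on the MEF list alone, and the bin with the most CpG among all 42. In the Odz3 line the label internal start refers to the bin, and the 300 bases themselves hold no annotated transcript start.
Odz4 intron 1, both lists, chr7:103379350-103379649, plus strand: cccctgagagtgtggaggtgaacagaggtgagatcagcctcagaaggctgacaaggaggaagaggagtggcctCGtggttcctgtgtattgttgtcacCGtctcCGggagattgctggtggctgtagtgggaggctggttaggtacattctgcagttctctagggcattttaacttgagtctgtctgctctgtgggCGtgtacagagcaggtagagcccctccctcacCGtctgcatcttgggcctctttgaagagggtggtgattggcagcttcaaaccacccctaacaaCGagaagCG
Odz4 intron 6, both lists, chr7:103710674-103710973, plus strand: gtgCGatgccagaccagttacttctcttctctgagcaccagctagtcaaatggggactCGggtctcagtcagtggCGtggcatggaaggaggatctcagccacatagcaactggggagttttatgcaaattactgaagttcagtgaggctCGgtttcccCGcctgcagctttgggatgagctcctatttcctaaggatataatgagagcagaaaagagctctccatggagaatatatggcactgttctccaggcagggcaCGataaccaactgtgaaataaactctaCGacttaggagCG
Odz4 intron 7, ES list, chr7:103805904-103806203, plus strand: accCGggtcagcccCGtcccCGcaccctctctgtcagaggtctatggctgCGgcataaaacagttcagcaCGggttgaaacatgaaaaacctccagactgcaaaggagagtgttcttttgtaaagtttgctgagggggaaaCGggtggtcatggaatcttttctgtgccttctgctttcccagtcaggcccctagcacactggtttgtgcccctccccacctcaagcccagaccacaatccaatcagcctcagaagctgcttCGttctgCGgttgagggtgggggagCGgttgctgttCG
Odz4 intron 4, MEF list, chr7:103685001-103685300, plus strand: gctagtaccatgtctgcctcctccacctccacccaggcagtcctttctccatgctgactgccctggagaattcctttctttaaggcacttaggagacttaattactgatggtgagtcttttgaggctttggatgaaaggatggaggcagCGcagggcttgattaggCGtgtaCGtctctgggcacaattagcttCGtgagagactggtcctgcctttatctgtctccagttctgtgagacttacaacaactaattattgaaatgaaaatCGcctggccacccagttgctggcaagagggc
Odz3 internal start, MEF list, chr8:49640198-49640497, minus strand: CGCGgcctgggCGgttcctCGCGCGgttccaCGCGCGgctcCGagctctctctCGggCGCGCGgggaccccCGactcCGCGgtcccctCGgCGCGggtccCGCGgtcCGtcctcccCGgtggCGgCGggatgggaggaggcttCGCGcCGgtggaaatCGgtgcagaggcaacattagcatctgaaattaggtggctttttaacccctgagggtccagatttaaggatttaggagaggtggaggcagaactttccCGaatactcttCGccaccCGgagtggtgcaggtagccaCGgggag
The CpG count of these windows was 7 and 8 in the bins on both lists, 10 in the ES bin, 5 in the MEF bin of Odz4 and 34 in the Odz3 bin. The GC content of the Odz3 window was 66.3%, against 49.7% to 55.7% in the 4 windows of Odz4.

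The teneurins are taken first, as the ligands of the pair. Odz4, a teneurin needed for early mouse development and for oligodendrocyte differentiation, lies on chromosome 7 (103319754 to 104059603, plus strand, mm9) and spans 739850 bp. It had 10 altered bins in ES cells and 9 in MEFs among its 150 bins, or 6.67% and 6%. Over the genome 1.67% of bins were on the ES list and 1.75% on the MEF list. In the plot of shares per gene, Odz4 was the only member whose ES share exceeded its MEF share.

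**Figure D1:**
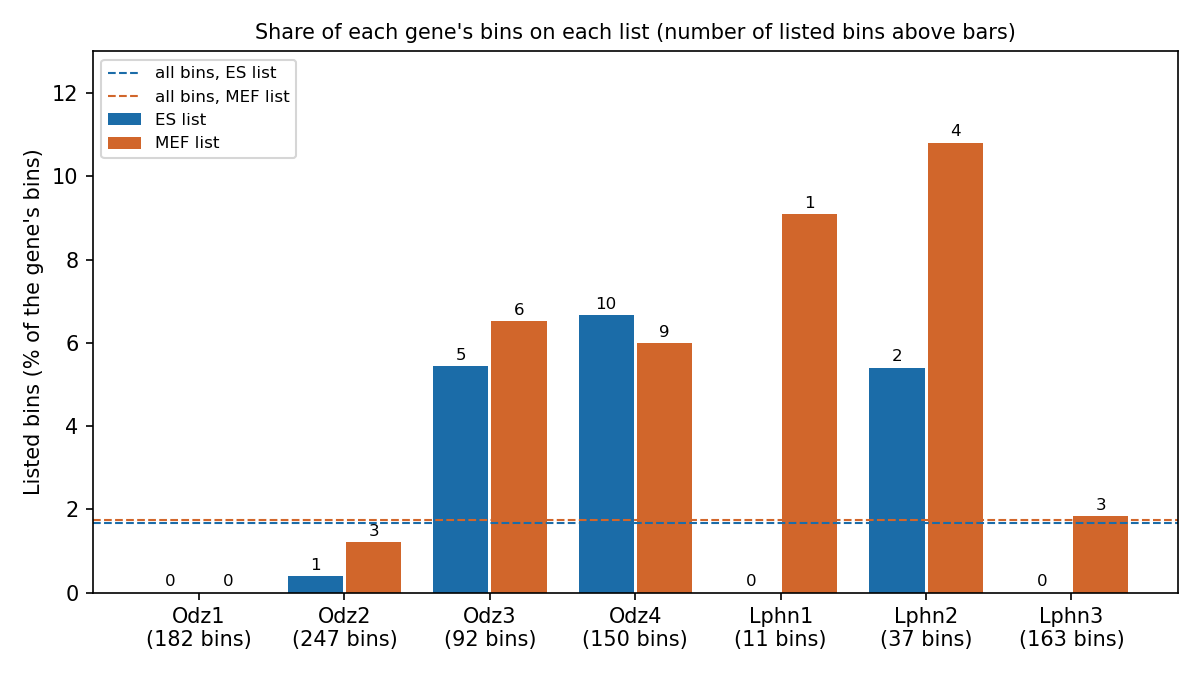
Share of each gene's 5 kb bins (percent, y axis) on the ES list (blue) and the MEF list (orange), with the number of listed bins above each bar and the genome-wide shares of 1.67% and 1.75% as dashed lines. Odz3, Odz4 and Lphn2 stand above both lines in both cell types, and Odz1 is at 0. Odz3 is drawn over its annotated locus, and its shares would be lower over its RefSeq length. Each cell type has 1 library per genotype, so there are no error bars.

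The ES bins of Odz4 ran along the whole gene. They started at 103375001, 103405001, 103520001, 103710001, 103805001, 103815001, 103830001, 103980001, 104035001 and 104050001. Divided into 3 equal parts from the 5′ end, the gene held 3, 2 and 5 of them. In intron 7, 3 ES bins (103805001, 103815001 and 103830001) lay within 30 kb of each other. The MEF bins started at 103375001, 103685001, 103710001, 103720001, 103780001, 103890001, 103910001, 103925001 and 104015001, with 1, 4 and 4 in the same parts. No bin of Odz4 touched another bin of its own list. Between 103525001 and 103685000 neither list had a bin, a stretch of 160 kb.

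The 2 bins on both lists lay in introns. The one from 103375001 to 103380000 was in intron 1 of transcript Odz4-001, 17.3 kb downstream of the nearest annotated transcript start, with 8.6 CpG per kb and 47.2% GC. The one from 103710001 to 103715000 was in intron 6, with 9.4 CpG per kb and 46.6% GC. They made up 20% of the ES bins and 22.2% of the MEF bins of the gene. Over all bins with sequence, 406 were on both lists (0.0794%), which is 4.75% of ES bins and 4.53% of MEF bins. A gene model with at least 1 such bin was found 293 times (1.13% of models). Among the 330 models of 400 kb or more that contain fewer than 10 other genes, 20 had 1 (6.06%). In that set only Prkce, the protein kinase C epsilon gene, named after its value was seen, had more than 2, with 4. The other 8 ES bins of Odz4 lay 20 to 145 kb from the nearest MEF bin.

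Odz3, the teneurin best known for matching connections in the visual system and hippocampus, lies on chromosome 8 (49313036 to 49760044, minus strand). It had 5 ES bins (5.43% of 92) and 6 MEF bins (6.52%), and none on both lists. The ES bins started at 49325001, 49400001, 49585001, 49630001 and 49740001 and were spread from 17.5 to 433 kb from the 5′ end of the locus. The MEF bins started at 49565001, 49635001, 49640001, 49675001, 49690001 and 49695001, all between 62.5 and 193 kb from the 5′ end. The MEF bins thus lay together in the 5′ part of the annotated locus, in intron 2 of transcript Odz3-001, with 5 of 6 in the first of 3 equal parts. In the last part there were 2 ES bins and no MEF bin. An ES bin (49630001) directly touched the first of 2 adjoining MEF bins (49635001 and 49640001).

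The Odz3 bin from 49640001 to 49645000 was altered in MEFs only. It contains the starts of the internal transcripts Odz3-002, Odz3-003 and Odz3-004, and had 35.0 CpG per kb, more than any other bin of the gene. The printed Odz3 window comes from this bin, lies downstream of these starts and shows its CpG packed toward the start of the line. Among the 47 bins of the 7 genes within 1 kb of an annotated transcript start, this was 1 of 3 on the MEF list, and 0 were on the ES list. The other 2 were an Odz4 bin at exon 16 (103925001), which contains the start of a processed transcript, and the Lphn2 bin described further on. The other 44 of the 47 bins were on neither list. Over all 882 bins of the 7 genes, 2.95% were on the MEF list and 2.04% on the ES list. Whether the lists differ at transcript starts was not tested.

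The annotated Odz3 locus is short. It spans 447009 bp in the annotation used, while the RefSeq model of Tenm3 on assembly GRCm38.p6 spans 1297160 bp. The stretch of 850151 bp upstream of the locus, the difference in length, held 3 further ES bins and 4 further MEF bins among 170, including 1 on both lists (49830001 to 49835000, 72.5 kb upstream). The others started at 49785001 and 49885001 on the ES list and at 49865001, 49945001 and 50085001 on the MEF list. None of these 6 bins overlapped another gene model. Counted with this stretch, Odz3 would have 8 ES and 10 MEF bins. Listed bins were sparser in the stretch than in the annotated locus, which held 5 ES and 6 MEF bins among 92. The Odz3 shares of 5.43% and 6.52% thus depend on the short locus and would be lower with the stretch. The place of the MEF bins turns with it: the 6 in the annotated locus would lie 70.4% to 80.4% along the longer gene, and its 3 equal parts would hold 0, 4 and 6 MEF bins and 0, 3 and 5 ES bins. Coordinates were not converted between assemblies, so whether the stretch equals the longer model was not tested.

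Odz2, the teneurin known as Lasso, a high-affinity ligand of latrophilin 1, is the longest of the 7 genes (chromosome 11, 35820158 to 37049466, minus strand, 1229309 bp). It had 1 ES bin, at 35970001 in intron 11, and 3 MEF bins, at 35820001, 35850001 and 36340001. This was 0.405% and 1.21% of its 247 bins, both below the genome-wide shares. The 5′ part of the gene, from 36345001 to 37055000, held no listed bin over 710 kb. Odz1, the X-linked teneurin (chromosome X, 39881043 to 40782303, minus strand), had 0 of 182 bins on either list. On the whole X chromosome 0.0555% of bins were on the ES list and 0.160% on the MEF list, low shares over all of its 32419 bins. The bins of Odz1 were also poor in CpG, with a median of 4.40 per kb and 7 of 182 bins at 10 or more. The part of chromosome and of CpG density in the count of Odz1 was not tested.

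**Figure D2:**
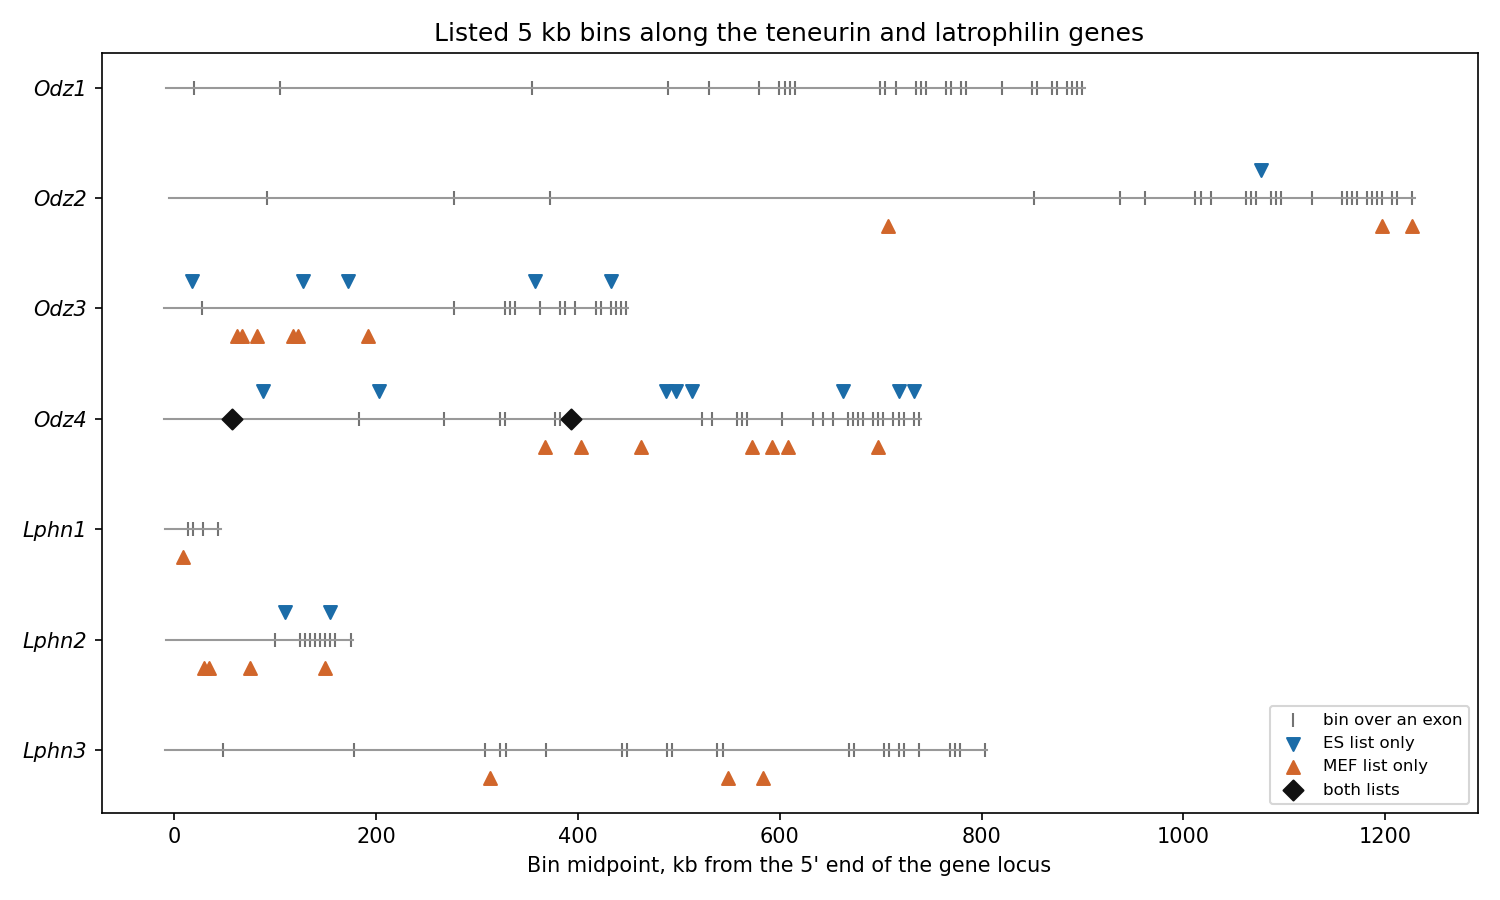
Listed 5 kb bins along the 7 genes, drawn to 1 scale in kb from the 5′ end of each locus (x axis), with ES bins above the line, MEF bins below it, bins on both lists as black diamonds and grey ticks for bins over an exon. The 2 bins on both lists are in Odz4, the MEF bins of Odz3 group toward the 5′ end of the annotated locus drawn here (70.4% to 80.4% along the RefSeq length), and Odz1 carries none.

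The ES bins of the receptors were all in Lphn2 (2 of 37 bins, 5.41%). Lphn3, which makes up 163 of the 211 receptor bins, had 0. The 3 latrophilin genes together had 2 ES bins (0.948% of 211) and 8 MEF bins (3.79%), and none on both lists. The teneurins had 16 (2.38% of 671) and 18 (2.68%). Whether the families differ was not tested, since neither genes nor bins are replicates.

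Lphn2, a latrophilin that guides target choice of hippocampal axons and is expressed in many tissues outside the brain, lies on chromosome 3 (148478550 to 148652280, minus strand). It had 2 ES bins, at 148495001 and 148540001, and 4 MEF bins, at 148500001, 148575001, 148615001 and 148620001. This was 5.41% and 10.8% of its 37 bins. The ES bin at 148495001 covers exons 13 to 15 of its protein-coding transcript of longest span, which encode residues 842 to 1007 of 1487, and had 22.2 CpG per kb. It touches the MEF bin at 148500001, which covers exons 10 to 12, residues 673 to 841. The 2 lists thus met in the exon-dense 3′ part of the gene without sharing a bin. The MEF bins at 148615001 and 148620001 adjoin, and the former contains the start of that transcript. The 5′ end of the locus, the start of another transcript, lies in a different bin, 148650001 to 148655000, which had 66.6 CpG per kb, the highest of all 882, and was on neither list.

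Lphn3, a latrophilin acting at excitatory synapses (chromosome 5, 81449163 to 82254158, plus strand), had 0 ES bins and 3 MEF bins among 163 (1.84%), close to the genome-wide MEF share. They lay in introns at 81760001, 81995001 and 82030001, and the first 320 kb of its bins held none. Its bins had a median of 6.40 CpG per kb, and the 3 altered bins had 8.2, 6.8 and 7.8. Lphn1, a receptor for the spider toxin alpha-latrotoxin, is the shortest member (chromosome 8, 86424004 to 86465853, plus strand, 41850 bp). It had 0 ES bins and 1 MEF bin, in intron 1 at 86430001, among 11. The CpG-rich bin at its start (86420001, 52.6 CpG per kb) was not listed. Its MEF share of 9.09% rests on that single bin.

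By number of bins on the ES list the order was Odz4 (10), Odz3 (5), Lphn2 (2), Odz2 (1) and then Odz1, Lphn1 and Lphn3 at 0. By number on the MEF list it was Odz4 (9), Odz3 (6), Lphn2 (4), Odz2 and Lphn3 (3 each), Lphn1 (1) and Odz1 (0). With Odz3 at its RefSeq length the first 2 places on the MEF list exchange, at 10 for Odz3 and 9 for Odz4. With 1 library per genotype there is no spread to say which neighbours in these orders differ. Of the 7 genes, 4 had an ES bin, where 19.8% of all gene models did, and 6 had a MEF bin, where 14.1% did. Bins of each list were found in 4 of the 7, and in 5.9% of all models. Long genes cover more bins, and among the 330 models of 400 kb or more the shares were 44.8% and 52.4%. That set holds the teneurins and Lphn3 but not the shorter Lphn1 and Lphn2. Of its members here, Odz2, Odz3 and Odz4 had an ES bin and all but Odz1 had a MEF bin. The median of the 330 models was 0 ES bins and 1 MEF bin. In that set 1 model had more ES bins than Odz4 and 15 had more MEF bins. For Odz3 these numbers were 17 and 26, for Odz2 86 and 68.

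**Figure D3:**
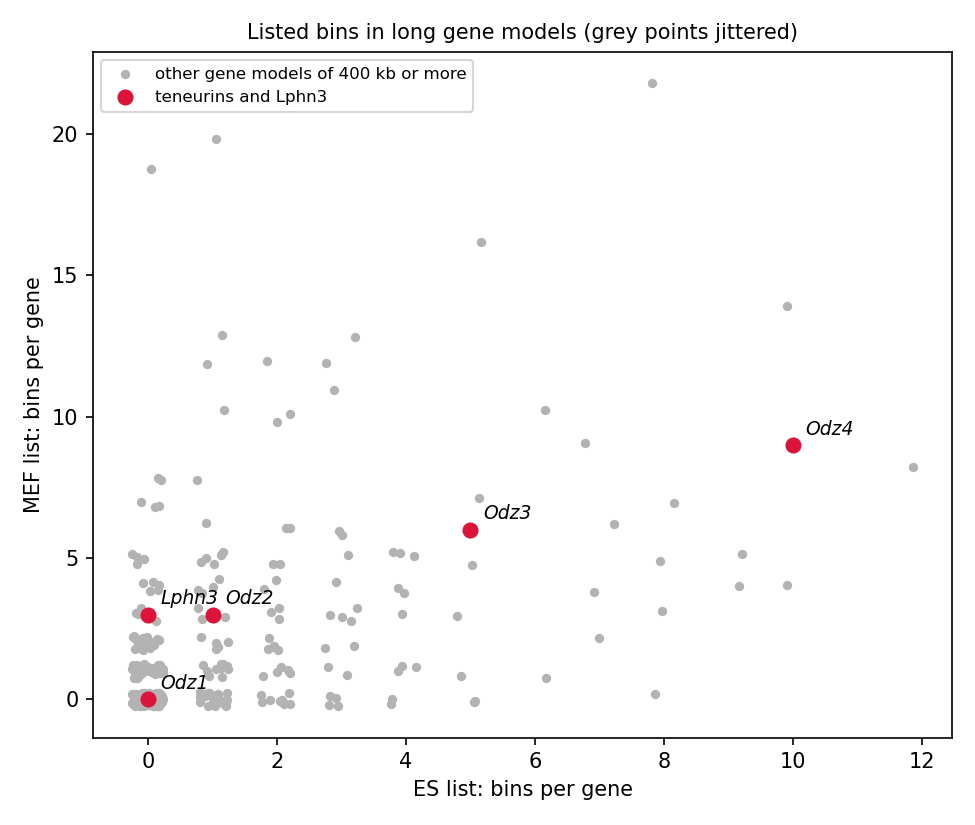
Number of listed bins per gene on the ES list (x axis) and the MEF list (y axis) for the 330 gene models of 400 kb or more with fewer than 10 other genes inside. Odz4 (10 and 9) and Odz3 (5 and 6) lie away from the crowd near the origin that holds Odz1, Odz2 and Lphn3; grey points are jittered.

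The genes most like Odz4 were sought among the 103 models with a span within 25% of its own, by the summed difference in ES, MEF and common bin counts. The closest was Slit3, which encodes a secreted axon guidance ligand of ROBO receptors (8 ES, 7 MEF and 0 common bins, summed difference 6). It was followed by Arhgap26, a GTPase-activating protein gene (8, 5 and 1, difference 7), and Camta1, a calmodulin-binding transcription activator gene (6, 10 and 0, difference 7). Wwox, which encodes an oxidoreductase with WW domains (10, 14 and 0) and is named after its values were seen, tied with these at 7 and came after them only because its span is further from that of Odz4. The measure rests on the same 2 lists. In these 103 models the median was 0 ES bins and 1 MEF bin.

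Most altered bins of the 7 genes were in introns. In ES cells 14 of 18 were intron bins and 4 overlapped an exon of any transcript (22.2%, exact 95% interval 6.41% to 47.6%). In MEFs 19 of 26 were intron bins, 4 overlapped an exon (15.4%, exact 95% interval 4.36% to 34.9%) and 3 lay at transcript starts. Intervals cover counting error over bins only. Of the 840 bins on neither list, which include all 182 of Odz1, 78.9% were intron, 15.1% exon and 5.24% transcript start bins. The intron shares of the altered bins were near this, and the intervals of their exon shares include 15.1%. Transcript start bins were 0% of ES bins and 11.5% of MEF bins, the latter on 3 bins. Whether the classes differ was not tested. None of the 42 overlapped the body of another annotated gene. Mir708, a microRNA in intron 1 of Odz4 (103397934 to 103398042), lay 6.96 kb from the nearest altered bin.

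Apart from the Odz4 MEF bin at exon 16 (103925001, residues 732 to 799), which was classed as a transcript start and lies 82.1% along the gene, the altered bins over teneurin exons were at the 3′ end. The 3 genes Odz2, Odz3 and Odz4 have 69 exon bins, of which 30 (43.5%) lie in the last 10% of the annotated locus. The 6 altered ones of that class were all among those 30. Measured on the RefSeq length of Odz3, its last 10% would be longer and take in more of the 69 bins. In Odz4 the ES bin at 104035001 covers exon 29 of 33 (residues 1810 to 1888 of 2825). The ES bin at 104050001 covers exons 32 and 33 (residues 2526 to 2793), and the MEF bin at 104015001 covers exon 26 (residues 1408 to 1459). In Odz2 the MEF bin at 35850001 covers exon 27 of 31 (residues 1752 to 1830 of 2764) and the one at 35820001 covers exons 30 and 31 (residues 2468 to 2764). In Odz3 the ES bin at 49325001 covers exon 26 of 29 (residues 1785 to 1883 of 2715). These exons encode parts of the extracellular carboxyl-terminal region.

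Some of these exons are counterparts of each other. Each coding exon under an altered bin was aligned with every coding exon of the other teneurins, and the match of highest identity was taken. Exon 29 of Odz4, under an ES bin, and exon 27 of Odz2, under a MEF bin, were each other's best match between the 2 genes, with 236 coding bases each and 66.7% identity. Exon 32 of Odz4 likewise matched exon 30 of Odz2 (60.4%), and the last exons of both genes matched as well (64.5% with Odz2 exon 31 as the query). Thus 3 of the 5 Odz4 coding exons under altered bins lay under ES bins and had counterparts under MEF bins in Odz2. The last exon of Odz4 also reaches into an unlisted bin. These are not 3 separate cases, since Odz4 exons 32 and 33 share the ES bin at 104050001. Odz2 exons 30 and 31 likewise share the MEF bin at 35820001. The match of exons under altered bins was noticed in the data and was not tested. The counterparts in Odz3 (exons 25, 28 and 29) and Odz1 (exons 28, 32 and 33) were in bins on neither list. The counterparts of Odz4 exons 16 and 26, both under MEF bins, were in unlisted bins in all 3 other teneurins. Likewise the counterparts of Odz3 exon 26 (Odz4 exon 30, Odz2 exon 28 and Odz1 exon 29) were in unlisted bins. The pair of exons is printed with capitals at the bases that differ in the alignment, which has 1 gap in each sequence.
Odz2 exon 27, MEF list, chr11:35853209-35853444, minus strand: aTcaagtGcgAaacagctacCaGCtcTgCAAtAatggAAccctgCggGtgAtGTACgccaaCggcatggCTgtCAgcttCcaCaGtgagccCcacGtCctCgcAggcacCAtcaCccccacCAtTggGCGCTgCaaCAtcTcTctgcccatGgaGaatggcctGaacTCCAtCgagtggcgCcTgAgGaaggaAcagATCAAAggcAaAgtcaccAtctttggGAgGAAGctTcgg
Odz4 exon 29, ES list, chr7:104037184-104037419, plus strand: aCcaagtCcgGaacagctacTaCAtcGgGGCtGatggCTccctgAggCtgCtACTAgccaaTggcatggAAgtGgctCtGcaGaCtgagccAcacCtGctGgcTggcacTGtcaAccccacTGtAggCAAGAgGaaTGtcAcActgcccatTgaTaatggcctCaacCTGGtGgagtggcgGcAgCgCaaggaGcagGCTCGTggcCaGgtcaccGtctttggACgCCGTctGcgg
Of the 236 bases 78 are in capitals in each line. The exon held 10 CpG in Odz2 and 9 in Odz4.

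Taken over the 7 genes, altered bins had a higher median CpG density than unlisted bins. Their median was 13.1 CpG per kb on the ES list (range 8.60 to 22.2) and 11.2 on the MEF list (5.40 to 35.0), against 7.40 in the 840 bins on neither list. In the genome as a whole the medians were 12.6, 11 and 7 for ES bins, MEF bins and all bins. Of the ES bins 16 of 18 were above the median of their own gene, and of the MEF bins 20 of 26. In Odz4 the medians were 10.6 in ES and 10.0 in MEF bins against 8.60 in its unlisted bins, and in Odz3 15.8 and 14.8 against 13.2. The single MEF bin of Lphn1 went the other way, with 11 against a median of 16.7. Bins with 10 or more CpG per kb made up 35.3% of Odz4, 87.0% of Odz3, 28.3% of Odz2, 9.20% of Lphn3 and 3.85% of Odz1. Among such bins of Odz4, 9.43% were on each list. Over the genome these shares were 4.53% in ES cells and 3.83% in MEFs. Of the bins below that density 5.15% of those in Odz4 were on the ES list and 4.12% on the MEF list, against 0.549% and 0.942% over the genome. The bin with the most CpG was on neither list in 5 of the 7 genes. The exceptions were Odz2 (35820001, MEF, 23.0 per kb) and Odz3 (49640001, MEF). Most CpG-rich bins were unlisted: of those with 10 or more CpG per kb in the 7 genes, 4.87% were on the ES list and 6.74% on the MEF list.

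**Figure D4:**
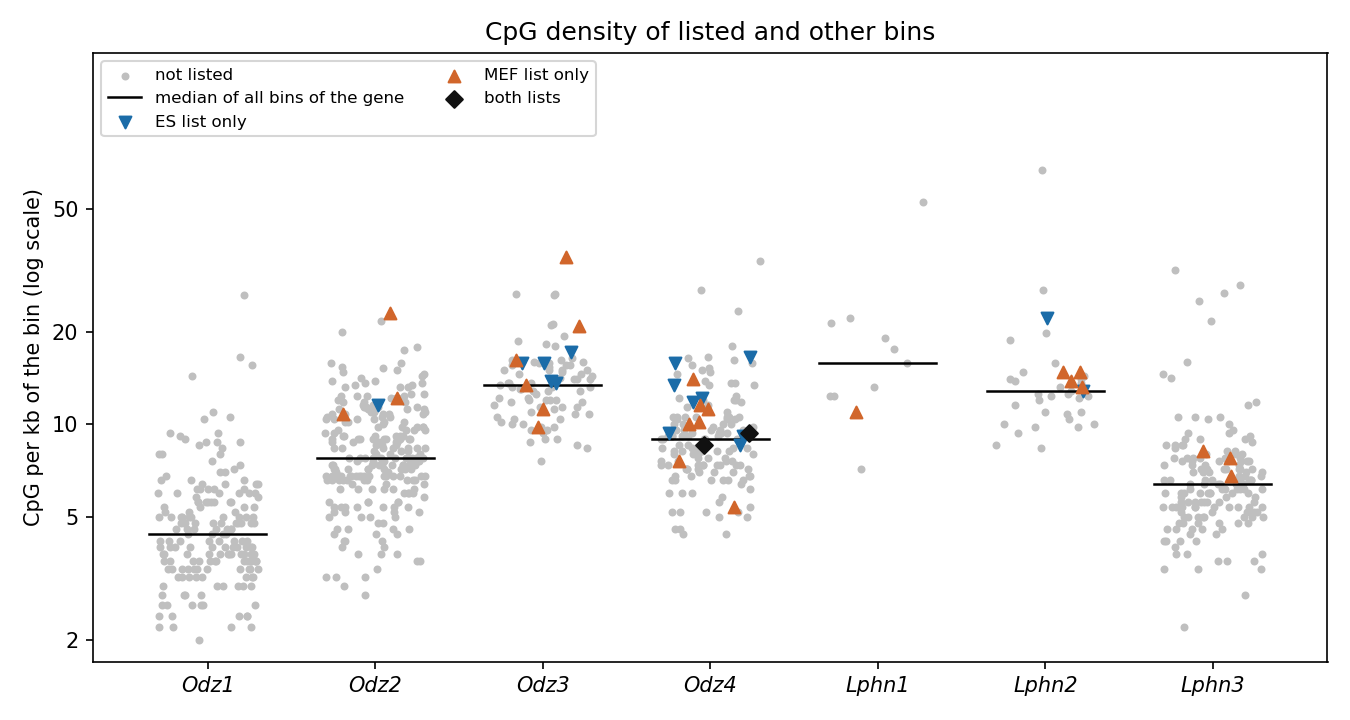
CpG per kb (log scale, y axis) of every bin of each gene, grey where it is on neither list, coloured by list otherwise, with the median of all bins of the gene as a black line; points are spread sideways. Most altered bins lie above the line of their gene, Odz1 has the lowest line at 4.40, and the unlisted points at 66.6 in Lphn2 and 52.6 in Lphn1 are bins at transcript starts.

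Odz2, Odz3, Odz4 and Lphn2 had bins on each list. Of their 18 ES bins, 2 (11.1%) were the same bin as a MEF bin, where 4.75% of ES bins over the genome were. A further 2 touched a MEF bin and the median distance to the nearest MEF bin in the gene was 35.0 kb. Distances and touching bins were not computed for other genes. Touching bins of 1 list were seen in MEFs only, with 6 of 26 bins (4 in Odz3, 2 in Lphn2), against 0 of 18 in ES cells. Whether these patterns arise from the cells or from how each list was made cannot be told apart, since each list rests on 1 library per genotype and the calling is not given.

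Of 18 known partner genes of the 2 families, 7 had an ES bin (38.9%) and 5 had a MEF bin (27.8%), where 19.8% and 14.1% of all models did. In 2 there were bins of each list, none had a bin on both lists, and the median was 0 bins in both lists, as over all genes. Among the neurexins, presynaptic proteins of which some bind latrophilin 1, Nrxn2 had 2 ES bins and Nrxn3 had 1, and neither of these had a MEF bin. Of the FLRT genes, whose products bind latrophilins, Flrt1 had 1 MEF bin and Flrt2 and Flrt3 had none. Among the netrin receptor genes Unc5b had 1 MEF bin and Unc5d had 2. Of the scaffold genes that bind the latrophilin tail, Shank2 had 2 ES bins and 1 MEF bin, and Shank1 and Shank3 had 1 ES bin each.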

How the data were processed

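Sonicated genomic DNA was enriched for 5hmC by glucosylation, biotinylation and streptavidin capture, per the labels' protocols. BWA and SAMtools 1.3.1 and genome mm9 are named without role, per the submitters' processing notes. The differential caller, with its threshold and any input, is not given in the sources used here. What the authors deposited is other than a level: each of 2 lists holds a position and a running number per 5 kb bin, with no count or direction. The members and gene lists were chosen with earlier results of these data known.

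Positions are printed 1-based on NCBIM37 (mm9) with GENCODE M1. The running numbers on chromosome 1 and the end of the last listed chromosome 13 bin (120284312) matched this genome. Models were protein-coding, lincRNA and processed transcript genes on chromosomes 1 to 19 and X, the longest locus per name. A bin belonged to a gene if it overlapped the locus or 5 kb upstream, and was a promoter bin within 1 kb of a start of that gene, otherwise exon, otherwise intron. Exon numbers follow the protein-coding transcript of longest span. Repeated sequence is the share of sampled 32-base words that occur more than once, and shares over all bins exclude bins with over 50% undetermined bases. RefSeq (GRCm38.p6) gave names and model lengths. Named genes were the 7 members, the 3 models most like Odz4 in bin counts, and, of 3 gene lists (partners, other adhesion receptors, other synaptic adhesion genes), those with a common bin or 3 or more bins on a list. Some partners below that rule are named beside others of their families, and some list members are not reported here by name. No test was made. The counting code was tested on simulated windows. Depth is unknown. Python 3.11.15, numpy 2.4.6, pandas 2.3.3, scipy 1.17.1, numba 0.67.0 and matplotlib 3.10.9 were used.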

Additional observations from a re-analysis of the deposited data

How the results depend on the processing

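The totals of 18 ES bins, 26 MEF bins and 2 common bins, and the 14 counts per gene and list, stayed within 1.5 times their value with no upstream flank, with 10 kb upstream, by bin midpoint, with the longest protein-coding transcript as the gene, and without bins over 20% repeated words. Counting ES bins with a MEF bin within 1 bin as common gave 4 in place of 2. By bin midpoint the exon share was 0% in both lists, since that rule classes a bin by 1 base and exons are short; with the exons of the longest protein-coding transcript only it was 22.2% in ES cells and 19.2% in MEFs. An alternative chosen after seeing the data lengthened Odz3 upstream to its RefSeq length and gave 21 ES, 30 MEF and 3 common bins in total, with Odz3 at 8 and 10. No paired analysis was possible because each group has 1 library and no test was made. Positions without depth or level cannot show where 5hmC was too low to be compared.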

Other observations

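Other adhesion G protein-coupled receptor genes, relatives of the latrophilins, had altered bins in 10 of 27 genes in ES cells (37.0%) and 7 of 27 in MEFs (25.9%), where 19.8% and 14.1% of all models did. Gpr133 had 1 ES bin and 5 MEF bins among 24 (chromosome 5, 129602625 to 129710474). Gpr56, a receptor of cortical development, and its neighbour Gpr97 shared 1 bin that was on both lists. Of 28 symbols 27 were found in the annotation.

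Of 23 other synaptic adhesion genes, 4 had an ES bin (17.4%) and 6 a MEF bin (26.1%), where 19.8% and 14.1% of all models did. Gene length was not matched in any of the 3 gene lists, and long genes cover more bins. Cadm1, the gene of the adhesion molecule SynCAM 1, had 10 MEF bins and 2 ES bins among 68. The LAR-type receptor phosphatase genes Ptprf (3 ES, 4 MEF bins among 18) and Ptprs (4 ES, 2 MEF and 1 common among 15) had bins on each list. The neuroligin gene Nlgn1 had none among 142 bins, and Lrrtm4 none among 161.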
